A study of Mus musculus with 30 samples.

Results

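The genes described here are 10 immediate early genes of mouse skeletal muscle: FOS, FOSB, JUN, JUNB, EGR1, EGR3, ATF3, IER2, NR4A1 and SIK1. They were taken by gene symbol from the 21073 genes of the deposited expression table, and each symbol matched a single row. Their expression was measured in the extensor digitorum longus (EDL), a fast hind limb muscle, of 30 wild-type female SJL/J mice, with 5 different mice in each of 6 groups. Mice were left unimmunized (Ctrl), were immunized with ovalbumin in complete Freund's adjuvant (OVA), or developed experimental autoimmune encephalomyelitis (EAE), a mouse model of multiple sclerosis, after immunization with the myelin peptide [Ser140]-PLP139-151 in the same adjuvant. No pertussis toxin was given, in a model the study describes as mild, and EAE and OVA mice share the adjuvant while Ctrl mice had none. Muscles were taken on day 14, at the peak of disease, and on day 40, during the second remission. The age of the mice is not given in the sources used here. Since each mouse was sampled on 1 day, the day cannot be told apart from any batch that went with it.

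Immediate early genes are switched on within minutes of a stimulus by factors already bound at their promoters, without new protein synthesis. In muscle, contraction, calcium signals, cAMP, growth factors, inflammatory cytokines, stress and loss of nerve input are all known to induce members of this class. FOS and JUN proteins pair through leucine zippers into the AP-1 factor, EGR proteins bind GC-rich sites through zinc fingers, ATF3 belongs to the CREB/ATF family of leucine zipper proteins, and NR4A1 is an orphan nuclear receptor. IER2 is a small nuclear protein, and SIK1 is not a transcription factor but a kinase, which phosphorylates class IIa histone deacetylases and CRTC coactivators.

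On day 14, 7 of the 8 members that could be tested were higher in EAE than in unimmunized muscle, by 1.85- to 5.50-fold. Of all genes tested, 14.6% were called higher. The call of NR4A1 was lost when any of 3 single mice was left out, and NR4A1 was not called against OVA. OVA immunization gave no called change on day 14, where 0.0944% of all genes were called higher and 0.0472% lower. By day 40 no member passed the test in EAE muscle. Against Ctrl, 0.0690% of all genes were called higher and 0.391% lower on that day, and 0.0349% and 0.174% against OVA. FOS, JUNB and ATF3 were among the 8 genes with the largest log2 increase over Ctrl of the 8691 tested, but their groups overlapped with Ctrl. Without EAE day 40 replicate 4 their log2 fold changes fell from 1.14, 0.76 and 0.77 to 0.83, 0.61 and 0.47. JUN and SIK1 differed between the days in EAE mice by more than in either control group. The same test was passed in this direction by 32.1% of all genes against Ctrl and 24.0% against OVA. The values of all members in all mice are shown in the plot by mouse.

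**Figure D1:**
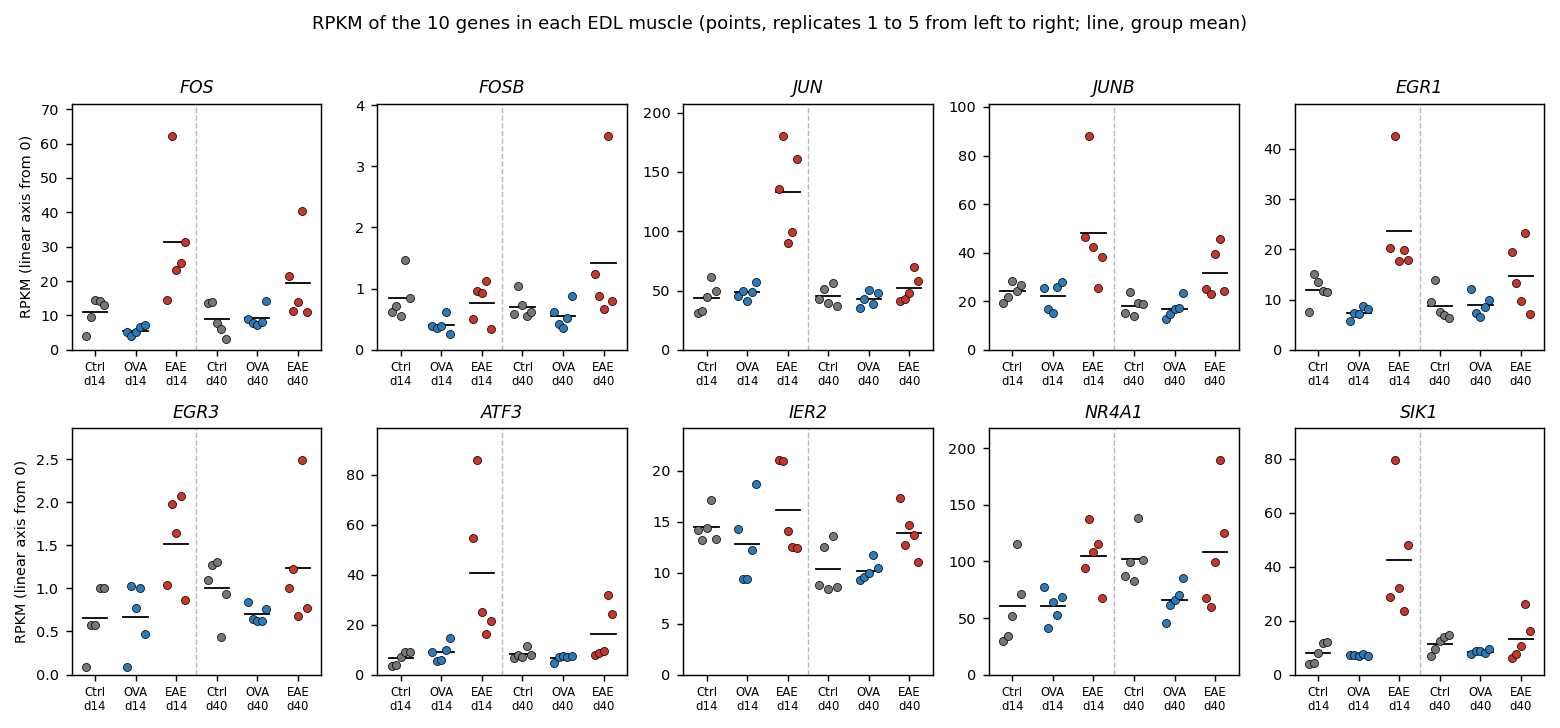
RPKM (reads scaled to exon length and sequencing depth, linear axis from 0) of the 10 genes in each mouse, by group and day (d14, d40); each point is 1 mouse and each line the mean of 5 mice. The EAE points of JUN, ATF3 and SIK1 on day 14 all lie above both control groups, and replicate 2 of EAE day 14 and replicate 4 of EAE day 40 are the highest of their groups for most genes.

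Promoter sequences from RefSeq (GRCm38.p6) were matched for 6 of the 10 members, FOS, FOSB, JUN, JUNB, ATF3 and NR4A1. The last 150 bases before the RefSeq start are shown 5′ to 3′ for 4 members that were called in EAE muscle on day 14. JUNB was called too and is not shown. Capitals mark TGACG, the core of the cAMP response element (CRE), on either strand (CGTCA on the other), and in addition TGACATCA, a CRE-like site of JUN/ATF dimers, and TATAAA. The stretches lie at chr12:85473740-85473889 on the plus strand (FOS), chr4:95052223-95052372 on the minus strand (JUN), chr1:191183334-191183483 on the minus strand (ATF3) and chr15:101266696-101266845 on the plus strand (NR4A1).
FOS: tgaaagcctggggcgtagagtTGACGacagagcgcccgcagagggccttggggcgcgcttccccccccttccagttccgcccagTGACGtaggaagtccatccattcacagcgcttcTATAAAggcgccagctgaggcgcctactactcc
JUN: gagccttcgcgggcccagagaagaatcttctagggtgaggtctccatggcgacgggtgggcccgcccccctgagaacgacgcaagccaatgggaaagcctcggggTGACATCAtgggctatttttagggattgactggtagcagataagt
ATF3: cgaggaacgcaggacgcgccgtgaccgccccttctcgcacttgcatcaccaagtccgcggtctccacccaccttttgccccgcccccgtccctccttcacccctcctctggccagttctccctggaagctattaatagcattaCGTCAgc
NR4A1: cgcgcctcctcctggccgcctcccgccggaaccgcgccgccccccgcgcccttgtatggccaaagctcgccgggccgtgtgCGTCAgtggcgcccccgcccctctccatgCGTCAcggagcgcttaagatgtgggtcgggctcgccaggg

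Letters were searched in the 250 bases before the start, on both strands, for the 6 members and for all 32851 promoters of the same table. TGACG was present in 5 of the 6 members (FOS, FOSB, JUNB, ATF3 and NR4A1, with 4 copies in NR4A1), against 17.8% of all promoters. The sixth, JUN, held TGACATCA from 45 to 38 bases before its start, a string found in 2.93% of promoters. TATAAA occurred in FOS only, from 33 to 28 bases before the start (12.4% of promoters). GCGNGGGCG, a binding sequence of EGR proteins, was found in FOSB and NR4A1 (4.7% of promoters), and GGGCGG, the GC box, in 5 of 6 (32.7%). In both genes a GC box overlaps the EGR match. The full CRE TGACGTCA, which contains TGACG (1.55% of promoters), the AP-1 site TGANTCA (6.75%) and the CArG box of serum response factor (1.47%) were found in none of the 6 windows, which says only that these letters are not in the searched bases. The RefSeq starts of FOSB, ATF3 and NR4A1 lie inside the gene spans of the GENCODE annotation. The last 150 bases before the start held 58% to 75.3% G or C in the 6 members, against a median of 54.0% over all promoters. The shares of promoters were not matched for this. These matches describe sequence and were not compared with binding data.

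Each mouse had an estimated 18180000 to 31630000 reads on genes (median 21670000), of which its 10 highest genes took 15.86% to 24.32%. Muscle fibre RNA was present: 10 of 10 muscle fibre markers exceeded 3 RPKM in every group. This does not tell the EDL from other muscles. FOS was covered by at least 158 estimated reads in a mouse, SIK1 by at least 406 and JUN by at least 2320, where 1 read more or less is far below the spread between mice, but EGR3 was covered by as few as 8.65 and FOSB by as few as 19. In whole muscle, fewer cells of a type cannot be told apart from less RNA per cell. All members are covered by exons of their own in the GENCODE M21 annotation, with no exon overlap with another gene.

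Per exon length, the most abundant member in unimmunized muscle on day 14 was NR4A1, at 60.4 ± 34.9 RPKM (mean ± SD, n = 5), followed by JUN at 44.0 ± 12.5 and JUNB at 24.1 ± 3.71 RPKM. IER2 (14.4 ± 1.58), EGR1 (11.9 ± 2.85), FOS (11.0 ± 4.4), SIK1 (7.96 ± 3.93) and ATF3 (6.48 ± 2.78 RPKM) lay between. FOSB (0.839 ± 0.368) and EGR3 (0.651 ± 0.381 RPKM) did not reach a group mean of 3 RPKM in any group and were not among the genes tested, so 8 of the 10 members have a test. The members varied unequally between mice of a group: in unimmunized muscle on day 14 the coefficient of variation was 10.9% for IER2 and 57.8% for NR4A1.

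Groups were compared with limma on log2(RPKM + 0.1), and a gene was called when its Benjamini-Hochberg adjusted p was below 0.05 and its fold change above 1.5. In EAE against unimmunized mice on day 14, 7 of 8 tested members were called higher, against 14.6% of the 8771 genes tested, and 0 lower, against 11.8%. The members had a median log2 fold change of 1.2, against 0.11 over all genes tested. Against OVA mice 6 of 8 were called higher (background 11.0%) and 0 lower (9.28%), with a median of 1.5 against 0.11. Both comparisons share the EAE mice. The groups did not overlap for 5 members in either comparison (FOS, JUN, EGR1, ATF3 and SIK1), where 21.2% of all genes in the first and 18.0% in the second lay wholly above the control group. The 0 members called lower are limma counts, and no member had an unadjusted p below 0.05 in that direction.

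**Figure D2:**
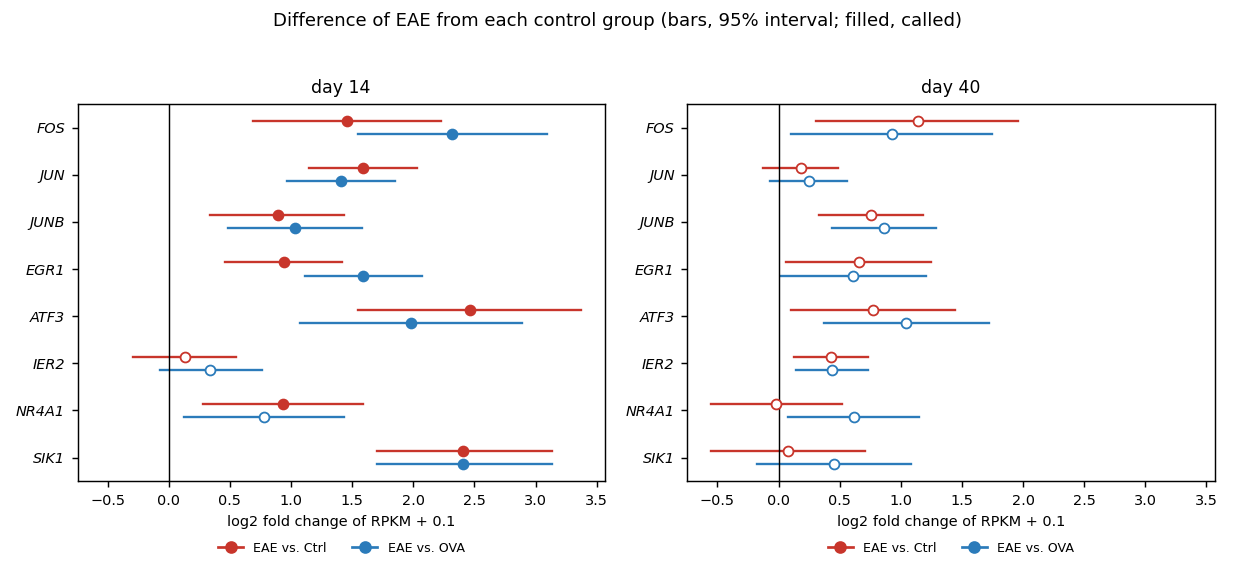
log2 fold changes of EAE against Ctrl (red) and against OVA (blue) on day 14 and day 40 for the 8 tested genes, with 95% intervals from limma; filled points passed the adjusted p and fold thresholds. On day 14 the values run from 0.13 (IER2) to 2.46 (ATF3) against Ctrl, and on day 40 no point is filled while FOS (1.14) is the largest against Ctrl.

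Of the AP-1 subunits, FOS (Entrez gene 14281, chromosome 12 of GRCm38 from 85473890 to 85477273, plus strand) was at 14.5, 62.3, 23.2, 25.2 and 31.4 RPKM in EAE replicates 1 to 5 on day 14. It was at 3.93, 9.66, 14.4, 14.2 and 13.1 RPKM in unimmunized mice and at 5.16, 4.00, 5.07, 6.68 and 7.10 RPKM in OVA mice. Every EAE mouse was above every control mouse, though EAE replicate 1 exceeded the highest unimmunized mouse only narrowly, and EAE replicate 2 was the highest of all. FOS was 2.75-fold higher in EAE than in unimmunized muscle (95% interval 1.61 to 4.70, limma adjusted p = 0.00425) and 4.99-fold higher than in OVA muscle (2.92 to 8.53, limma adjusted p = 0.000161). Its level in OVA mice was the lowest of the 6 groups, with a log2 difference from Ctrl of -0.86 ± 0.36 (SE) and a limma adjusted p of 0.458.

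JUN, the principal partner of FOS (Entrez gene 16476, a single exon on chromosome 4 from 95049034 to 95052222, minus strand), was at 135, 181, 90.4, 99.2 and 161 RPKM in the EAE mice of day 14. The unimmunized mice were at 31.2, 33.1, 44.2, 61.7 and 49.6 RPKM and the OVA mice at 45.1, 49.9, 41.2, 49.0 and 57.5 RPKM. The lowest EAE mouse was well above the highest control mouse, and the spread within OVA mice was small (coefficient of variation 12.5%). JUN was 3.02-fold higher than in Ctrl (2.23 to 4.09, limma adjusted p = 2.81e-05) and 2.66-fold higher than in OVA (1.97 to 3.61, limma adjusted p = 8.84e-05).

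JUNB, a JUN family member that can replace JUN in AP-1 with weaker activity, rose less. It was at 46.4, 88.1, 42.5, 25.5 and 38.0 RPKM in EAE mice, 19.2, 21.7, 28.3, 24.4 and 26.9 RPKM in unimmunized mice and 25.5, 16.9, 15.2, 25.7 and 27.8 RPKM in OVA mice. EAE replicate 4 lay within the range of both control groups, and the other 4 EAE mice lay above them. The fold changes were 1.85 (1.27 to 2.70, limma adjusted p = 0.0104) and 2.04 (1.40 to 2.98, limma adjusted p = 0.0054) against Ctrl and OVA. FOSB, a second FOS protein, was low in all groups: EAE mice were at 0.337 to 1.12 RPKM (median 0.932) and unimmunized mice at 0.551 to 1.47 RPKM (median 0.716). With no filter on low values its log2 fold change was -0.14 ± 0.30 against Ctrl (limma adjusted p = 0.756) and 0.73 ± 0.30 against OVA (adjusted p = 0.0938).

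Of the zinc finger factors, EGR1 (Entrez gene 13653) was at 20.3, 42.6, 17.7, 19.8 and 17.9 RPKM in EAE mice, 7.52, 15.1, 13.5, 11.8 and 11.4 RPKM in unimmunized mice and 5.73, 7.41, 7.06, 8.66 and 8.14 RPKM in OVA mice. Every EAE mouse was above every control mouse, and 4 of the 5 unimmunized mice were above all OVA mice. EGR1 was 1.92-fold higher in EAE than in Ctrl (1.37 to 2.67, limma adjusted p = 0.00339) and 3.01-fold higher than in OVA (2.16 to 4.20, limma adjusted p = 7.13e-05). EGR3, which muscle spindles need to develop, was at 1.04, 1.98, 1.64, 2.08 and 0.867 RPKM in EAE mice. It was at 0.0904 to 1.01 RPKM in unimmunized and 0.088 to 1.03 RPKM in OVA mice. EAE replicate 5 lay within both control groups. With no filter, the log2 fold change of EGR3 was 1.27 ± 0.52 against Ctrl (limma adjusted p = 0.0745) and 1.24 ± 0.52 against OVA (adjusted p = 0.0991). Replicate 1 of each control group was near the floor, which raises these log2 changes.

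ATF3 had the largest fold change of the members against Ctrl, but not against OVA, where SIK1 and FOS changed more, nor against Ctrl without EAE replicate 2 (ATF3 4.35-fold, SIK1 4.44-fold). This leucine zipper protein, induced by many kinds of cell stress (Entrez gene 11910, chromosome 1 from 191170296 to 191218039, minus strand), was at 54.7, 85.8, 25.2, 16.1 and 21.3 RPKM in EAE mice. Unimmunized mice were at 3.28, 3.97, 6.86, 9.13 and 9.15 RPKM, and OVA mice at 8.88, 5.34, 5.86, 9.97 and 14.6 RPKM. The groups did not overlap, but the EAE mice spread over a 5.34-fold range, with replicates 1 and 2 apart from the other 3, and the highest OVA mouse came close to the lowest EAE mouse. The change was 5.50-fold against Ctrl (2.93 to 10.3, limma adjusted p = 0.000327) and 3.94-fold against OVA (2.10 to 7.40, limma adjusted p = 0.00203).

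SIK1 (Entrez gene 17691, 14 exon blocks on chromosome 17 from 31844250 to 31855804, minus strand) was also called in both comparisons, with groups that did not overlap. EAE mice were at 28.8, 79.3, 32.1, 23.4 and 48.1 RPKM, unimmunized mice at 3.85, 4.12, 8.14, 11.7 and 12.0 RPKM, and OVA mice at 7.29, 7.11, 6.87, 7.57 and 6.77 RPKM. The OVA mice were nearly equal (coefficient of variation 4.51%), whereas the unimmunized mice fell into a lower pair and a higher trio. SIK1 was 5.32-fold higher in EAE than in Ctrl (3.25 to 8.73, limma adjusted p = 5.19e-05) and 5.32-fold higher than in OVA (3.25 to 8.73, limma adjusted p = 5.86e-05).

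NR4A1 (Entrez gene 15370, chromosome 15 from 101254269 to 101274795, plus strand), a nuclear receptor that in muscle is known to act on genes of glucose use, was at 94.4, 138, 108, 115 and 67.4 RPKM in EAE mice. Unimmunized mice ranged from 29.4 to 115 RPKM (median 51.4) and OVA mice from 41.4 to 77.1 RPKM (median 64.0), so the groups overlapped in both comparisons. It was called against Ctrl at 1.91-fold (1.22 to 3.00, limma adjusted p = 0.0208) and missed the threshold against OVA at 1.71-fold (1.09 to 2.69, limma adjusted p = 0.0561). The call against Ctrl was lost without Ctrl replicate 1, without Ctrl replicate 2 or without EAE replicate 2, and it was the only member's call lost in this comparison when mice were left out in turn. IER2 was the tested member called in neither comparison: it was at 12.4 to 21.0 RPKM (median 14.1) in EAE mice, 13.2 to 17.1 (median 14.2) in unimmunized and 9.39 to 18.7 RPKM (median 12.3) in OVA mice. Its fold change of 1.09 against Ctrl had an interval of 0.821 to 1.46 (limma adjusted p = 0.602), and that of 1.27 against OVA one of 0.952 to 1.69 (adjusted p = 0.177).

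The increase did not run evenly through the EAE mice. Replicate 2 was the highest of the 5 EAE mice for 7 of the 10 members (FOS, JUN, JUNB, EGR1, ATF3, NR4A1 and SIK1), replicate 4 for FOSB and EGR3, and replicate 1 for IER2. Among unimmunized mice of day 14, replicate 1 was the lowest for 8 members. Without EAE replicate 2, 6 members were still called higher against Ctrl, with log2 fold changes of 1.17 for FOS, 1.47 for JUN, 0.64 for JUNB, 0.71 for EGR1, 2.12 for ATF3 and 2.15 for SIK1, and NR4A1 was not (0.83, limma adjusted p = 0.058).

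**Figure D3:**
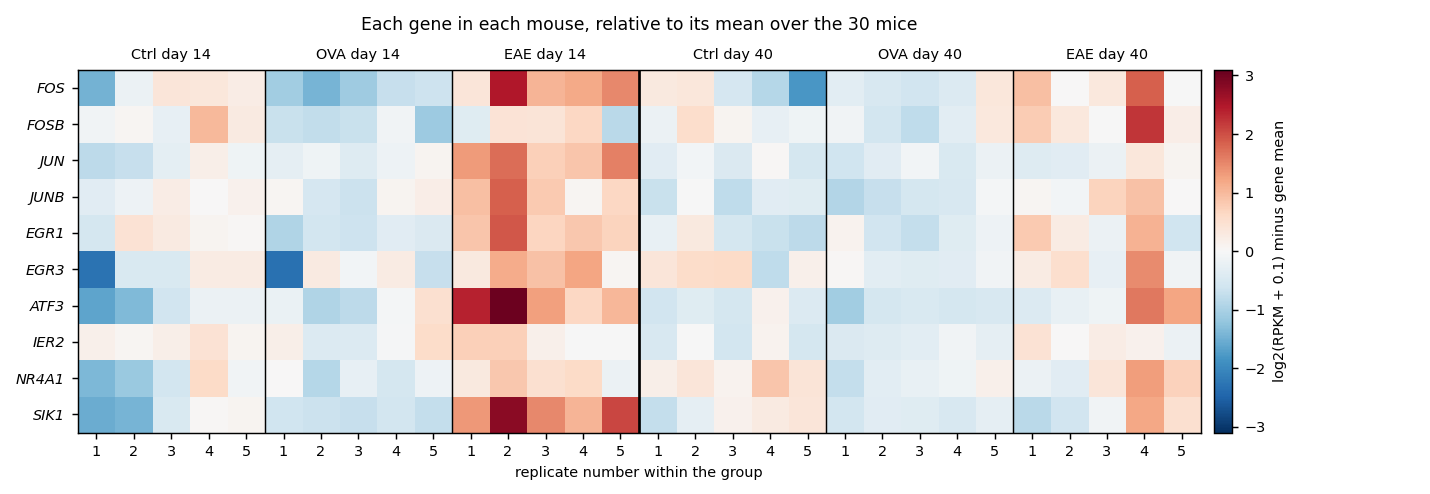
log2(RPKM + 0.1) of each gene (rows) in each of the 30 mice (columns, by group and replicate number) minus the gene's mean over all mice, from -2.31 (blue) to 3.04 (red). Replicate 2 of EAE day 14 and replicate 4 of EAE day 40 are red for most genes, and replicate 1 of Ctrl day 14 is blue for most.

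No difference between OVA and unimmunized mice passed the test on day 14: limma called 0 of 8 higher (background 0.0944%) and 0 lower (0.0472%), and 2 members had an unadjusted p below 0.05, as had 821 of the 8471 genes tested. These were FOS and EGR1 (log2 fold change -0.65 ± 0.23, limma adjusted p = 0.365), both lower in OVA mice. The median over the 8 members was -0.07. SIK1 had the same group mean on the log scale in both, with an interval of its fold change from 0.610 to 1.64.

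Genes around the members in their pathways were compared on day 14 in the same way. Over all genes tested, 14.6% were called higher and 11.8% lower against Ctrl, and 11.0% and 9.28% against OVA. Of 27 other immediate early genes, 23 were tested against Ctrl, and 12 were called higher and 2 lower (median log2 fold change 0.77). BTG2, an antiproliferative gene, rose by 2.11 ± 0.26, NR4A3, a paralog of NR4A1, by 2.32 ± 0.74 and MYC by 1.19 ± 0.27 on the log2 scale (limma adjusted p = 1.94e-05, 0.0179 and 0.00193). NR4A3 was near the floor in 1 or more Ctrl mice (0.0453 to 4.67 RPKM, mean 1.97), which raises its log2 change. Its EAE mice overlapped them (2.24 to 13.6 RPKM, mean 6.99). Against OVA mice BTG2 (2.14 ± 0.26) and MYC (1.18 ± 0.27) were called too, and NR4A3 was not (0.70 ± 0.74, limma adjusted p = 0.473). Of 9 tested relatives and partners of AP-1, MAFF, FOSL2 and MAFK were called higher, while JUND, the JUN family member that is not usually inducible, was at 31.0 ± 9.93 RPKM in EAE and 35.9 ± 5.32 in Ctrl (log2 fold change -0.26 ± 0.22, limma adjusted p = 0.344). FOSL2, a FOS relative, rose from 4.43 ± 1.47 to 8.14 ± 2.04 RPKM (0.89 ± 0.21, adjusted p = 0.00245) and was not called against OVA (0.49 ± 0.21, limma adjusted p = 0.0678). Against OVA mice 8 of the other immediate early genes were called higher and 2 lower. FOSL1, EGR2, NR4A2, CREB1 and SIK2 had group means below 3 RPKM in EAE and Ctrl mice and were not tested between them. CREB1 was tested against OVA and not called (-0.33 ± 0.14, limma adjusted p = 0.0637), and EGR2 was at 1.78 ± 0.397 RPKM in EAE and 1.19 ± 0.315 in Ctrl mice.

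Among 14 tested feedback inhibitors, which are induced with these genes and shut the response off, only DUSP5, a phosphatase of the kinase ERK, was called. It was called higher, and this count does not exceed the share of all genes called higher against Ctrl (14.6%, with 11.8% called lower). DUSP1 had a log2 fold change of 0.30 ± 0.22 (limma adjusted p = 0.281), ZFP36, which promotes decay of short-lived mRNAs, one of 0.32 ± 0.21 (adjusted p = 0.221), and NAB2, a corepressor of EGR proteins, one of 0.32 ± 0.18 (adjusted p = 0.164). Of 20 tested upstream kinases and promoter-bound factors, 7 were called higher and 1 lower, and SRF, which binds the CArG box, was at 24.7 ± 1.34 RPKM in EAE and 27.8 ± 0.934 in Ctrl (-0.17 ± 0.08, limma adjusted p = 0.0855). In the SIK1 axis, HDAC4, a substrate of SIK kinases, rose from 2.95 ± 0.879 to 15.6 ± 8.05 RPKM (log2 fold change 2.27 ± 0.33, limma adjusted p = 6.7e-05), and SIK3 rose by 0.77 ± 0.20 (adjusted p = 0.00525). MEF2C and MEF2A were the other called genes of the 12 tested, and CRTC2 was not called (0.04 ± 0.12, adjusted p = 0.813).

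Genes of other kinds differed between the same muscles, where 14.6% of all genes tested were called higher in EAE than in Ctrl and 11.8% lower. Of 8 heat shock chaperones, which respond to protein stress, 6 were called higher in EAE than in Ctrl, and their summed level was 511 to 1018 RPKM in EAE mice and 331 to 455 RPKM in Ctrl mice. Against OVA mice 2 of the 8 were called higher (background 11.0%). The summed chaperone level was highest in EAE replicates 1 and 2 (1018 and 812 RPKM), the mice with the most ATF3 RNA. The neutrophil marker sum was highest in the same mice (393 and 354 RPKM), and the fibroblast, macrophage, erythrocyte and muscle fibre sums were not. A link with ATF3 was not tested. Fibroblast markers were lower, with 7 of 8 called and sums of 325 to 513 RPKM against 912 to 1452 RPKM. Macrophage markers were lower in 5 of 8 (138 to 308 against 288 to 437 RPKM), endothelial markers in 3 of 10 (114 to 161 against 137 to 186 RPKM), and erythrocyte markers in 4 of 4 (26.5 to 189 against 189 to 684 RPKM). Neutrophil markers were higher in 4 of 4 tested (201 to 393 against 3.58 to 9.65 RPKM). Satellite cell markers were higher in 1 of 3 tested. Muscle fibre markers were lower in 1 of 10, which is near the share of all genes. No Schwann cell marker of 6 was called, and no lymphocyte marker reached the filter. None of these markers was at 0 in every mouse. In OVA mice, where no member was called, the 4 neutrophil markers were also called higher against Ctrl (64.0 to 229 RPKM, background 0.0944%). Between EAE and OVA mice only S100A8 of these 4 was called higher, and their median log2 fold change was -0.91. The part of these cell types, of heat shock genes in the members' changes was not tested.

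On day 40 limma called 0 of 8 members higher (background 0.0690%) or lower (0.391%) in EAE than in unimmunized muscle, and 5 had an unadjusted p below 0.05, all of them higher, as had 2423 of the 8691 genes tested in either direction. The median of the 8 was a log2 fold change of 0.54, against -0.05 over all 8691 genes. Few genes of any kind changed that much on this day, so FOS ranked 2, ATF3 7, JUNB 8 and EGR1 14 by log2 fold change among all genes tested. Against OVA mice 0 of 8 were called higher (background 0.0349%) or lower (0.174%), 6 had an unadjusted p below 0.05 (1500 of all 8598 genes), and ATF3 ranked 3, FOS 4 and JUNB 6. Between OVA and unimmunized mice, limma called 0 members higher and 0 lower, where 0 of 8706 genes were called higher and 0 lower (percentages of 0 and 0) and 272 genes had an unadjusted p below 0.05. NR4A1 was the member with such a p (log2 fold change -0.64 ± 0.25, adjusted p = 0.999).

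FOS was at 21.4, 11.2, 13.9, 40.4 and 10.9 RPKM in the EAE mice of day 40, at 13.6, 14.0, 7.71, 5.98 and 3.11 RPKM in unimmunized mice and at 8.84, 7.76, 7.26, 8.17 and 14.1 RPKM in OVA mice. Only EAE replicates 1 and 4 exceeded all control mice. The fold change was 2.20 against Ctrl (1.24 to 3.89, limma adjusted p = 0.0935) and 1.90 against OVA (1.07 to 3.37, limma adjusted p = 0.234).

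JUNB came nearest to a call. EAE mice were at 25.2, 23.1, 39.6, 45.7 and 24.4 RPKM, unimmunized mice at 15.1, 23.9, 14.1, 19.2 and 18.8 RPKM and OVA mice at 12.8, 14.9, 16.7, 17.2 and 23.5 RPKM. In each comparison 4 of 5 EAE mice lay above all controls and replicate 2 lay just inside. The fold changes were 1.69 against Ctrl (1.26 to 2.27, limma adjusted p = 0.0544) and 1.82 against OVA (1.35 to 2.44, limma adjusted p = 0.0602). Without Ctrl replicate 4 or without EAE replicate 2, JUNB was called against Ctrl, so the count of called members became 1.

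ATF3 was split within the EAE group: replicates 4 and 5 were at 32.0 and 24.1 RPKM, and replicates 1 to 3 at 7.66, 8.74 and 9.40 RPKM. Unimmunized mice ranged from 6.79 to 11.3 RPKM (median 7.64) and OVA mice from 4.81 to 7.44 RPKM (median 7.01). EAE and OVA mice did not overlap, which held for 0.977% of all genes in this direction, but 3 EAE mice lay in the range of unimmunized mice. Its fold changes were 1.71 (1.07 to 2.72, limma adjusted p = 0.138) and 2.06 (1.29 to 3.28, limma adjusted p = 0.132). EGR1 showed a different split, with 19.5, 13.2 and 23.3 RPKM in EAE replicates 1, 2 and 4 and 9.81 and 7.15 RPKM in replicates 3 and 5, against 6.23 to 13.8 RPKM in Ctrl (fold change 1.58, 1.04 to 2.38, limma adjusted p = 0.149).

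IER2 was at 17.3, 12.7, 14.7, 13.7 and 11.0 RPKM in EAE mice of day 40, 8.43 to 13.6 RPKM (median 8.82) in unimmunized and 9.27 to 11.7 RPKM (median 9.93) in OVA mice. The groups overlapped, and the fold change was 1.35 against each control group (1.10 to 1.66 in both, limma adjusted p = 0.0837 and 0.143). JUN and SIK1 overlapped the control groups: JUN was at 41.3 to 69.8 RPKM in EAE and 37.2 to 56.2 RPKM in Ctrl (fold change 1.13, 0.912 to 1.41, limma adjusted p = 0.42), and SIK1 at 6.31 to 26.3 and 6.79 to 14.6 RPKM (1.06, 0.682 to 1.64, adjusted p = 0.876). NR4A1 was at 59.8 to 189 RPKM in EAE, 83.0 to 139 in Ctrl and 45.8 to 85.3 RPKM in OVA mice, a fold change of 0.987 against Ctrl (0.682 to 1.43, limma adjusted p = 0.968) and of 1.53 against OVA (1.06 to 2.22, adjusted p = 0.225).

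FOSB and EGR3, too low to be tested, were each highest in EAE replicate 4. FOSB was at 3.50 RPKM in that mouse and at 0.667 to 1.24 RPKM in the other 4, against 0.558 to 1.04 RPKM in Ctrl, and EGR3 was at 2.49 RPKM, against 0.434 to 1.31 RPKM in Ctrl. With no filter their log2 fold changes against Ctrl were 0.68 ± 0.35 (limma adjusted p = 0.268) and 0.20 ± 0.31 (adjusted p = 0.726). EAE replicate 4 was the highest EAE mouse of day 40 for 9 of the 10 members, IER2 being the exception. Without it, the log2 fold changes against Ctrl were 0.83 for FOS, 0.61 for JUNB, 0.46 for EGR1, 0.47 for ATF3 and 0.43 for IER2, and those of NR4A1 (-0.25) and SIK1 (-0.21) lay below 0, all uncalled. Its heat shock sum of 289 RPKM was within the Ctrl range of 287 to 355 RPKM. No gene of the pathway and marker lists was called between EAE and Ctrl on this day, where 0.0690% of all genes were called higher and 0.391% lower.

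Day 40 and day 14 were next compared within each group, between different mice. In EAE muscle 4 of 8 members were lower on day 40 (background 12.7%) and 0 higher (8.36%), with a median log2 fold change of -0.71 against -0.11 over all genes. JUN fell by 1.34 ± 0.19 on the log2 scale and no EAE mouse of day 40 reached the lowest of day 14, as for 21.9% of all genes in this direction (limma adjusted p = 1.59e-06). SIK1 fell by 1.71 ± 0.34 (adjusted p = 0.000152), ATF3 by 1.27 ± 0.40 (adjusted p = 0.0107) and EGR1 by 0.73 ± 0.27 (adjusted p = 0.0272), with overlapping groups. Without EAE day 14 replicate 2, only JUN (-1.21) and SIK1 (-1.45) were called, and the log2 fold changes of ATF3 and EGR1 were -0.93 and -0.50 (limma adjusted p = 0.0561 and 0.127). Without EAE day 40 replicate 4, FOS (0.5-fold) and JUNB (0.62-fold) were called too, which made 6, and EGR1 was not called without EAE day 40 replicate 3 or replicate 5 (-0.51 without the latter, limma adjusted p = 0.116). FOS (-0.70 ± 0.40, adjusted p = 0.156) and JUNB (-0.54 ± 0.24, adjusted p = 0.0668) were not called, and NR4A1 had nearly the same mean on both days (105 ± 26.1 and 108 ± 52.4 RPKM).

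In unimmunized muscle 1 of 8 members was called higher on day 40 (background 5.02%) and 0 lower (4.35%). It was NR4A1, at 87.6, 99.7, 83.0, 139 and 101 RPKM on day 40 against 29.4, 34.4, 51.4, 115 and 71.3 RPKM on day 14, a 1.88-fold difference (1.23 to 2.88, limma adjusted p = 0.0251). Day 14 replicate 4 lay inside the day 40 range and the other 4 below it, and the call was lost without day 14 replicate 1 or replicate 2, leaving 0 members called. IER2 was lower on day 40 with an adjusted p of 0.0369 by limma, but its fold change of 0.71 was within the 1.5-fold limit, which it passed without Ctrl day 40 replicate 4, giving 1 member called lower. In OVA muscle limma called 0 members higher (2.25%) and 0 lower (1.71%), and 0 had an unadjusted p below 0.05, although FOS (7.26 to 14.1 RPKM on day 40, 4.00 to 7.10 on day 14) and SIK1 (7.59 to 9.36 and 6.77 to 7.57 RPKM) did not overlap between the days, which held for 7.02% of all genes in this direction.

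**Figure D4:**
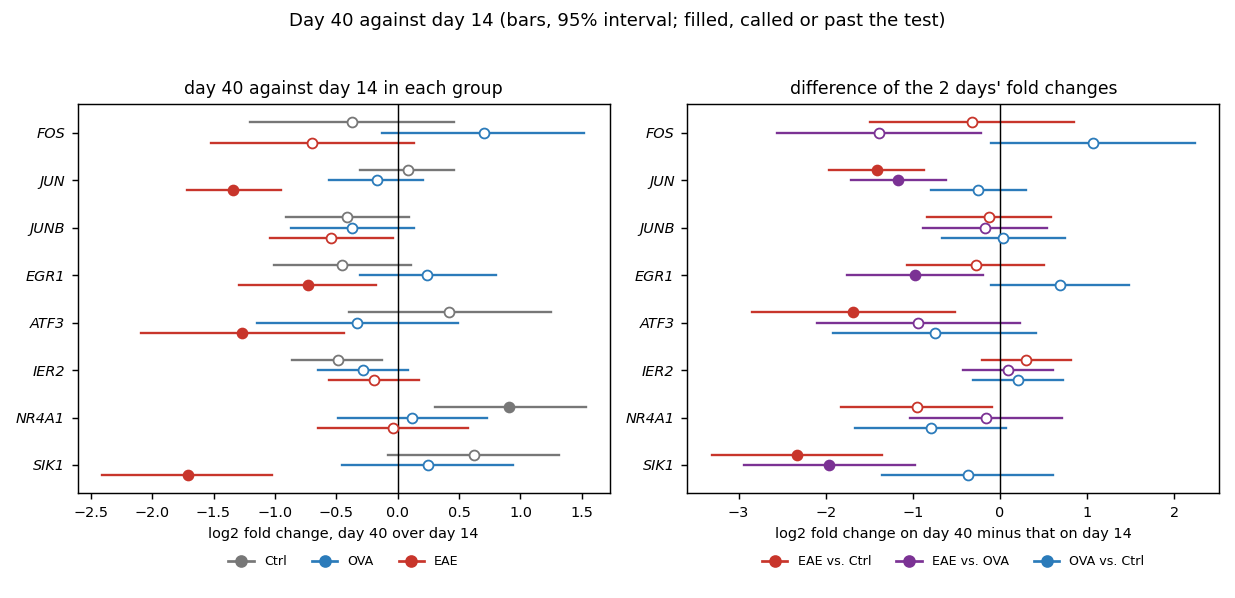
Left, log2 fold changes of day 40 over day 14 in Ctrl, OVA and EAE mice; right, log2 fold change between 2 groups on day 40 minus that on day 14, with 95% intervals from limma and filled points where the test was passed. All tested genes but IER2 lie below 0 in both EAE contrasts. JUN (-1.41 and -1.17) and SIK1 (-2.33 and -1.96) are those that passed the test against both control groups. In this direction 32.1% of all genes passed it against Ctrl and 24.0% against OVA.

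The change of the EAE effect between the days was tested directly as an interaction in limma, at an adjusted p below 0.05 with no fold threshold. Against Ctrl it was smaller on day 40 for 3 of 8 members (background 32.1%) and larger for 0 (16.5%): SIK1 by -2.33 ± 0.48, ATF3 by -1.69 ± 0.57 and JUN by -1.41 ± 0.27 on the log2 scale (limma adjusted p = 0.000356, 0.0161 and 0.000139). Against OVA it was smaller for 3 (background 24.0%) and larger for 0 (11.1%): SIK1 by -1.96 ± 0.48, JUN by -1.17 ± 0.27 and EGR1 by -0.98 ± 0.38 (limma adjusted p = 0.00243, 0.00127 and 0.0489). The EGR1 result stood at the threshold. These 3 of 8 are close to the share of all genes against Ctrl. Median-of-ratios scaling moved the median of all genes in these 2 contrasts from -0.15 to -0.00 and from -0.16 to -0.02, and the background from 1487 larger and 2895 smaller to 2032 and 2115 against Ctrl. For JUNB (-0.13 ± 0.35 and -0.17 ± 0.35) and FOS (-0.32 ± 0.57 and -1.39 ± 0.57) no change between the days passed the test. OVA against Ctrl gave 0 members in both directions by limma, none with an unadjusted p below 0.05, and 0% and 0% of the 8848 genes, of which 823 had such a p.

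The order of the 6 group means followed from these comparisons. EAE day 14 was the highest and EAE day 40 the second for FOS, JUN, JUNB, EGR1, EGR3, ATF3 and SIK1, and the highest mean exceeded the lowest by 6.27-fold for ATF3, 5.94-fold for SIK1 and 5.59-fold for FOS but by 1.59-fold for IER2 and 1.79-fold for NR4A1. Below the 2 EAE groups, the 4 control groups of JUN (43.2 to 48.5 RPKM), ATF3 (6.48 to 8.93 RPKM) and SIK1 (7.12 to 11.4 RPKM) showed no called difference in the tests made. NR4A1 and FOSB had the highest mean in EAE day 40, with standard deviations of 52.4 and 1.18 RPKM that covered the neighbouring groups.

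Over the 30 mice the members were most alike in pairs. Pearson's r of log2(RPKM + 0.1) was 0.904 for JUN and SIK1, 0.894 for FOS and EGR1, 0.889 for JUN and ATF3 and 0.885 for ATF3 and SIK1, and it was 0.755, 0.769, 0.771 and 0.757 for deviations from the group means. EGR1 and SIK1 were alike over all mice (0.621) but little within groups (0.138). EGR3 and IER2 were the only pair below 0 (-0.024). Among the 9049 genes whose mean passed 3 RPKM in any group, BTG2 was among the 3 most alike genes of FOS (0.778), JUN (0.956), JUNB (0.857), EGR1 (0.758), ATF3 (0.929) and SIK1 (0.926). The most alike gene was CSRNP1 for JUNB (0.875) and ATF3 (0.941), ERRFI1 for SIK1 (0.956), SLC25A25, a mitochondrial carrier, for NR4A1 (0.857), ZNHIT2 for IER2 (0.812) and RAD21 for EGR3 (0.871). These values describe 30 mice that share groups and library preparation and carry no test.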

How the data were processed

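Libraries of poly(A) RNA were sequenced in paired-end reads. The authors aligned the reads to mm10 with Subread, counted them on RefSeq transcripts with featureCounts and computed RPKM, per the labels and methods. The deposited table holds values on a log2 scale, log2(RPKM + 1), where 0.0001 stands for no read. The log step is not stated and was inferred: with exon lengths, the values taken as log2(RPKM + 1) add up to 1.01 to 1.08 of the reads that RPKM are scaled to, against 0.121 to 0.143 for values taken as RPKM. Values were converted back to RPKM. Reads per mouse were estimated from the RPKM steps of single reads. EdgeR, which the study used, was not run because no counts were used here.

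Groups came from the sample titles. limma 3.58.1 in R 4.3.3 (lmFit, eBayes with a mean-variance trend) was fitted to log2(RPKM + 0.1). Each day's 15 mice shared 1 model, and contrasts between days used all 30. The filter kept genes whose mean passed 3 RPKM in any compared group, and p-values were Benjamini-Hochberg adjusted over these. Fold changes are on the log2(RPKM + 0.1) scale, which understates those of low genes. The rule for named genes took all 10 members, a set of their pathway genes and the 3 genes most alike to each member. Not all of these alike genes are reported here. Other genes named from lists were chosen after their values were seen. Members and lists were chosen with earlier results of these data known. The fits were tested on simulated data. Alternatives were a pseudocount of 1, filters at 1 RPKM or none, median-of-ratios and quantile scaling, no trend, no fold threshold, other sets of mice in the model, a replicate block and leaving out each mouse.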

Additional observations from a re-analysis of the deposited data

Results flagged for a closer look

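Of 60 sets of 5 mice (10 members in 6 groups), 5 held a mouse whose distance to its nearest neighbour exceeded Dixon's 95% limit, where chance gives about 1 in 20 sets. EGR1 was at 42.6 RPKM in EAE day 14 replicate 2, against 20.3 RPKM in the next mouse. FOSB was at 3.50 RPKM in EAE day 40 replicate 4, against 1.24 RPKM in the next. FOS was at 14.1 RPKM in OVA day 40 replicate 5 (next 8.84), and ATF3 at 11.3 RPKM in Ctrl day 40 replicate 4 (next 7.96) and at 4.81 RPKM in OVA day 40 replicate 1 (next 7.01).

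In 6 of 24 interaction tests the difference between 2 groups changed between the days, 3 of 8 members in each EAE contrast, where 32.1% (against Ctrl) and 24.0% (against OVA) of all genes passed in the same direction. The log2 difference of EAE from Ctrl on day 40 minus that on day 14 was -1.41 for JUN, -1.69 for ATF3 and -2.33 for SIK1. The same for EAE from OVA was -1.17 for JUN, -0.98 for EGR1 and -1.96 for SIK1.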

How the results depend on the processing

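When each mouse was left out in turn, members called higher on day 14 numbered 6 to 7 against Ctrl and 6 to 7 against OVA. On day 40 the count against Ctrl was 0 to 1. Between the days it was 0 to 1 higher and 0 to 1 lower in Ctrl and 2 to 6 lower in EAE, and 3 to 4 (EAE and Ctrl) and 2 to 4 (EAE and OVA) interactions passed. With only the compared groups in the model, NR4A1 was no longer called between the days in Ctrl, which left 0, and with no fold threshold IER2 was called lower there, which gave 1. The first of these settings also added NR4A1 against OVA on day 14 (limma adjusted p = 0.0119), as did all 30 mice in 1 model, which made 7, and the FOS interaction against OVA (0.0304). EGR1 between the days in EAE was lost with it (0.0732) and with quantile normalization, each of which left 3. The EGR1 interaction against OVA was lost in 6 of the other alternatives and without 13 of 20 mice. The causes were not tested.

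Of 2088 recomputed log2 differences, 1984 kept direction and side of the threshold, 31 lost and 20 gained a call, and 53 turned sign. The last belong to 18 uncalled results (limma adjusted p at least 0.66) and were at most 0.22 in size. Median-of-ratios scaling gave 0.04 for NR4A1 (EAE vs. Ctrl, day 40), 0.05 for NR4A1 (days in EAE), 0.00 for IER2 (OVA vs. Ctrl, day 40) and 0.01 for the JUNB interaction of EAE and Ctrl, and quantile normalization 0.09 for the second, 0.02 for the third, 0.02 for the fourth and -0.03 for SIK1 (OVA vs. Ctrl, day 14), for which a pseudocount of 1 gave -0.02. Leaving out mice gave these ranges across 0. On day 14, OVA vs. Ctrl was -0.06 to 0.44 for NR4A1 and -0.22 to 0.19 for SIK1. On day 40 it was -0.11 to 0.42 for FOS, -0.13 to 0.01 for JUN, -0.23 to 0.00 for JUNB, -0.07 to 0.22 for EGR1 and -0.07 to 0.10 for IER2, and EAE vs. Ctrl was -0.25 to 0.16 for NR4A1 and -0.21 to 0.30 for SIK1. Between days it was -0.04 to 0.21 for JUN in Ctrl, -0.01 to 0.24 for NR4A1 in OVA and -0.27 to 0.14 for NR4A1 in EAE. Interactions were -0.65 to 0.01 for FOS and -0.33 to 0.12 for JUNB (EAE and Ctrl), -0.37 to 0.08 for JUNB, -0.06 to 0.20 for IER2 and -0.39 to 0.02 for NR4A1 (EAE and OVA), and -0.09 to 0.14 for JUNB (OVA and Ctrl).

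Median-of-ratios scaling changed the genes called on day 14 from 1282 higher and 1036 lower to 985 and 1240 against Ctrl, and from 957 and 805 to 731 and 996 against OVA, with the same number of members called. Replicate numbers are shared between groups, but in no comparison did all 5 same-numbered pairs of mice deviate together (correlation over 0.1 in 0 to 3 of 5 pairs), so they were not taken as pairs. The replicate 1 mice of day 14 did deviate together, at 0.509 (EAE and Ctrl), 0.699 (EAE and OVA) and 0.613 (OVA and Ctrl). The reason was not tested. With a replicate block the counts were 7 and 6 on day 14 and 4 between the days in EAE, and NR4A1 joined the interactions of EAE and Ctrl (-0.95, limma adjusted p = 0.0334), which made 4. FOSB and EGR3 fell below the filter because of their low expression, and neither was called against Ctrl or OVA on day 14, or against Ctrl on day 40, with no filter.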
